A study of Mus musculus with 10 samples.

Results

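The 10 genes described here are those of the T cell receptor complex and of the main T cell subsets, Cd3d, Cd3e, Cd3g, Cd247, Lck, Cd2, Cd4, Cd8a, Foxp3 and Il2rb, chosen by symbol from the 24454 genes measured as a contrast to genes of myeloid cells. They were measured by RNA-Seq in the back skin of C57BL/6 mice, in 5 wild-type (WT) mice and 5 Zfp36ΔARE mice with 1 library per mouse. Zfp36ΔARE mice are knockin animals that lack an instability motif of the 3′-UTR of Zfp36, the gene for the mRNA-decay factor tristetraprolin (TTP), in every cell of the body. Mice of both groups were 7 weeks old when they received a single topical dose of 400 nmol of DMBA, a mutagen that initiates skin tumors, and from 1 week later they received 10 nmol of TPA, a phorbol ester that promotes them, in 2 applications a week for 20 weeks. The biopsies were full-thickness skin that had been treated but held no tumor, so the libraries hold RNA of epidermis, hair follicles, dermis, fat, muscle and immune cells together, and no untreated skin was compared. Whether the genotype acted in T cells or in the cells around them cannot be told apart in this whole-body model.

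T cells recognize antigen through a receptor whose antigen-binding chains have almost no intracellular part and pass the signal through the CD3 chains and the zeta chain. The kinase LCK, which CD4 and CD8 can bind, phosphorylates these chains, which then recruit the kinase ZAP-70, and the adaptors LAT and SLP-76 act after it. Mouse skin holds αβ T cells in the dermis, including regulatory T cells around hair follicles, and γδ T cells in the epidermis and the dermis.

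Because TTP binds AU-rich elements, the longest annotated 3′-UTR of each of the 10 genes (GENCODE, GRCm38) was searched on the mRNA strand for ATTTA, the core pentamer of these elements, for TATTTAT, and for the longer TTATTTATT, in which each shorter motif is contained in the longer ones. ATTTA was found in 7 of the 10 genes, beside 68.9% of the 14408 tested genes with an annotated 3′-UTR. TATTTAT was found in 2 of them, Cd247 and Cd4, beside 29.5%. TTATTTATT was found only in Cd4 among the 10 genes, beside 7.94% of all. The sites of Cd4 and Cd247 are shown because they carry TATTTAT, and those of Cd3e because this gene serves as the T cell reference in the ratios given further on. Capitals mark ATTTA, and each window is 29 bases of the GENCODE mRNA, written 5′ to 3′.
Cd4, chr6:124866019-124866047, minus strand: ccccatcagcttATTTAttcttcgctgct
Cd247 first site, chr1:165870416-165870444, plus strand: attatttccactATTTAtaaagatttttt
Cd247 second site, chr1:165870888-165870916, plus strand: tccgccttttctATTTAtgcttgtgtgtg
Cd3e first site, chr9:44999100-44999128, minus strand: ttattcctttttATTTAatcttttttttt
Cd3e second site, chr9:44998865-44998893, minus strand: aggtcctgccccATTTAtagatcctggcc
Cd8a held 6 pentamers in a 3′-UTR of 2306 bases, while Cd3d, Cd3g and Lck held none in 995, 363 and 454 bases. A match describes the letters of the annotated transcript and is no measure of binding.

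Libraries held between 21638369 and 32583189 counts in WT and between 19595024 and 36419553 in Zfp36ΔARE skin. Zfp36 itself was 2152 ± 277 normalized counts in WT and 5427 ± 766 in Zfp36ΔARE skin (SD, n = 5), a log2 fold change of 1.33 (SE 0.12, edgeR adjusted p = 0.0019). A normalized count is a count scaled by edgeR's TMM method to the mean library size. Counts of Xist were 14829 to 28087 in all WT libraries and in Zfp36ΔARE replicate 1, but 4 to 15 in Zfp36ΔARE replicates 2 to 5, in which Y-linked genes were counted, so 4 of the 5 Zfp36ΔARE mice carried marks of the other sex and genotype and sex cannot be fully told apart. Zfp36ΔARE replicate 1, the library that shares the marks of the WT libraries, ranked 1 of its group for Cd2 and Il2rb, 2 for Cd4, Cd8a and Foxp3, 3 for Cd3g, Cd247 and Lck and 4 for Cd3d and Cd3e.

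None of the 10 T cell genes passed the test between the genotypes. All 10 were counted in every library, with between 28 and 305 raw counts per gene and library, and all passed the filter on low counts. By edgeR's quasi-likelihood test 0 of 10 were called, which required a fold change over 2 with an adjusted p under 0.05, beside 8.31% of the 15543 genes tested, and at an adjusted p under 0.05 alone 0 of 10 passed, beside 34.3%. An unadjusted p under 0.05 was reached by 0 of 10 in edgeR, in DESeq2 and in limma-voom. In edgeR 7323 of the 15543 tested genes reached it. With libraries left out, 1 of 10 reached it without WT replicate 3, without Zfp36ΔARE replicate 3 or without Zfp36ΔARE replicate 4. The count was also 1 without both WT replicates 1 and 3. The values of the groups overlapped in all 10, where 23.1% of tested genes had groups that did not overlap. The log2 fold changes, Zfp36ΔARE over WT, ran from −0.37 to 0.31 with a median of −0.09, beside a median of 0.0076 over all tested genes. In 6 genes the estimate was below 0 and in 4 above. The 95% interval included 0 in all 10 and lay within a 2-fold change either way in 9, all but Foxp3. In these bulk samples fewer cells of a type and less RNA per cell cannot be told apart.

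**Figure D1:**
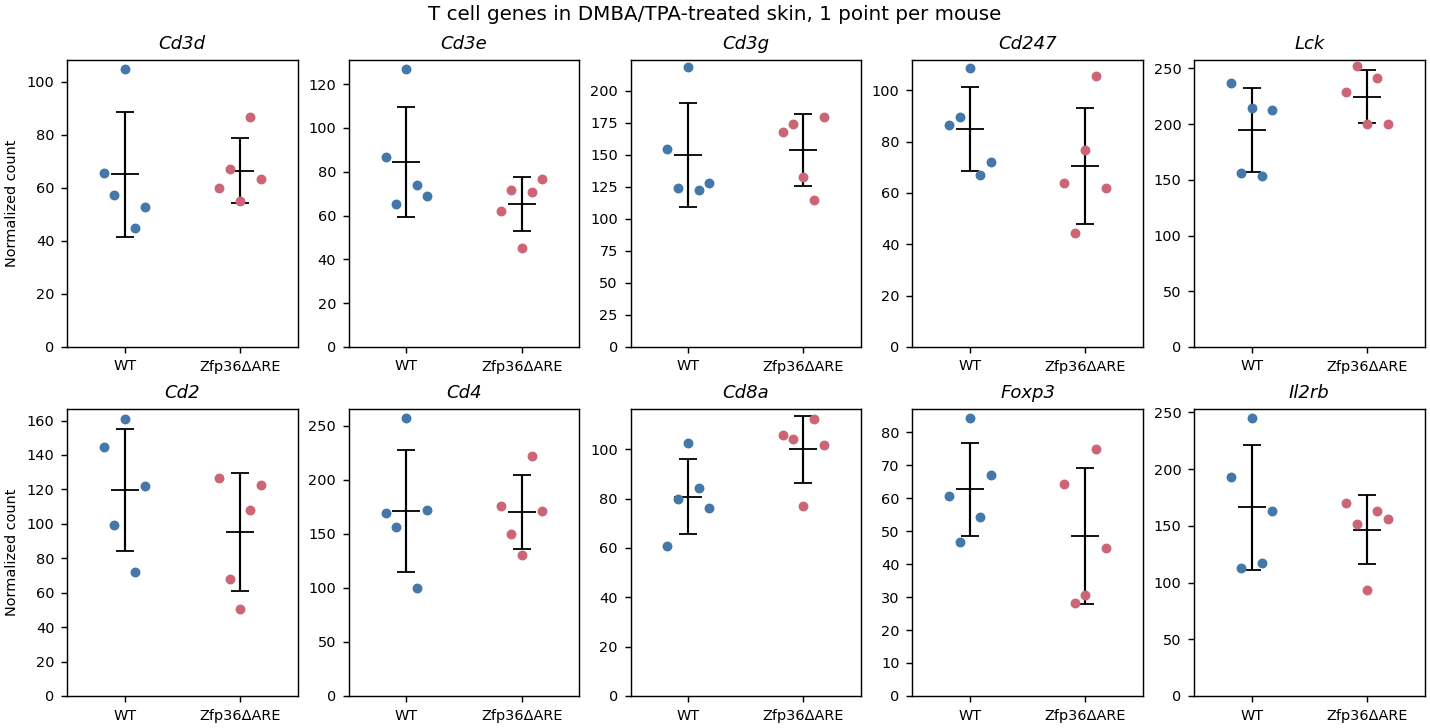
Normalized counts (vertical axes, from 0, each panel with its own scale) of the 10 T cell genes in WT and Zfp36ΔARE skin. Each point is 1 mouse and the bars give the mean and SD of 5 mice, and in every panel the points of both groups overlap.

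The CD3 chains are the part of the complex that every T cell shares. Cd3d, Cd3e and Cd3g, which encode the delta, epsilon and gamma chains, lie next to each other on chromosome 9 (GRCm38) at 44981769 to 44987052, 44998735 to 45009663 and 44969572 to 44980431. Cd3e had 86.6, 65.4, 127, 73.8 and 69.1 normalized counts in WT replicates 1 to 5 and 62.2, 71.5, 45.0, 70.8 and 76.5 in Zfp36ΔARE replicates 1 to 5. WT replicate 3 stood highest and Zfp36ΔARE replicate 3 lowest, and the other 8 libraries lay in one band. The group means were 84.4 ± 25.1 and 65.2 ± 12.4, with a log2 fold change of −0.37 (SE 0.22, 95% interval −0.85 to 0.11, adjusted p = 0.20), the lowest estimate among the 10. Cd3d showed a different balance, with 65.4, 57.3, 105, 44.6 and 52.6 normalized counts in WT and 59.9, 67.0, 54.9, 86.8 and 63.3 in Zfp36ΔARE replicates 1 to 5. All 5 Zfp36ΔARE values lay inside the WT range, and WT replicate 3 was again the highest. Its log2 fold change was 0.03 (SE 0.24, 95% interval −0.49 to 0.56, adjusted p = 0.92). For Cd3g the WT libraries held 155, 124, 218, 122 and 128 normalized counts and the Zfp36ΔARE libraries 168, 174, 133, 115 and 179. Again WT replicate 3 stood above the rest, and the log2 fold change was 0.05 (SE 0.19, 95% interval −0.38 to 0.47, adjusted p = 0.87). The 3 neighboring genes thus gave estimates on both sides of 0, each within its error.

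Cd247 encodes the zeta chain, the main signaling chain of the complex, on chromosome 1 at 165779952 to 165871153. Its normalized counts were 86.6, 89.7, 109, 67.0 and 72.2 in WT replicates 1 to 5 and 63.7, 44.4, 76.9, 105 and 62.0 in Zfp36ΔARE replicates 1 to 5. Zfp36ΔARE replicate 2 was the lowest of the 10 libraries, while replicate 4 was the highest of its group and lay near WT replicate 3. The log2 fold change was −0.27 (SE 0.23, 95% interval −0.78 to 0.24, adjusted p = 0.37). Because Cd247 overlaps Pou2f1 in the RefSeq annotation and the use of strand in counting was not given in the sources used here, its counts are uncertain. Pou2f1 was higher in Zfp36ΔARE skin, at 949.6 ± 45.8 against 787 ± 40.3 normalized counts (log2 fold change 0.27, adjusted p = 0.0094).

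Lck and Cd2 stand beside the receptor. LCK is the kinase that starts the signal, and CD2 is an adhesion molecule that binds CD48. Lck (chromosome 4, 129548344 to 129573641) had 237, 156, 215, 153 and 213 normalized counts in WT and 229, 253, 199.9, 242 and 200.4 in Zfp36ΔARE replicates 1 to 5. WT replicates 2 and 4 were the lowest of the 10 libraries, and the other 3 WT libraries lay among the Zfp36ΔARE values. The log2 fold change was 0.21 (SE 0.14, 95% interval −0.11 to 0.53, adjusted p = 0.27). Cd2 (chromosome 3, 101275908 to 101287939) had 145, 99.4, 161, 71.8 and 122 in WT and 127, 67.9, 50.5, 108 and 123 in Zfp36ΔARE skin, in normalized counts. The spread inside each group was wide, from 50.5 in Zfp36ΔARE replicate 3 to 161 in WT replicate 3, and the log2 fold change was −0.33 (SE 0.29, 95% interval −0.97 to 0.32, adjusted p = 0.39).

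Among the subset genes, Cd4 and Cd8a encode the co-receptors of helper and cytotoxic T cells, and each is also known in some dendritic cells. Cd4 (chromosome 6, 124864693 to 124888247) held 169, 157, 257, 99.97 and 172 normalized counts in WT replicates 1 to 5 and 176, 150.3, 131, 222 and 171 in Zfp36ΔARE replicates 1 to 5. Its means were nearly equal, at 171 ± 56.4 and 170.02 ± 34.1, and WT replicates 3 and 4 were the highest and the lowest of all 10 libraries. The log2 fold change was −0.0083 (SE 0.23, 95% interval −0.51 to 0.50, adjusted p = 0.98). Cd8a (chromosome 6, 71373427 to 71379171) held 60.8, 80.0, 102, 84.4 and 76.4 normalized counts in WT and 106, 104, 76.9, 112 and 102 in Zfp36ΔARE skin. Here 4 of the 5 Zfp36ΔARE libraries lay between 102 and 112, near WT replicate 3 and above the other WT libraries, and Zfp36ΔARE replicate 3 lay among the WT values. The log2 fold change of 0.31 was the highest of the 10 and had the lowest adjusted p (SE 0.16, 95% interval −0.05 to 0.67, edgeR adjusted p = 0.155). Its partner chain Cd8b1 had a log2 fold change of 0.24 (SE 0.26, adjusted p = 0.49).

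Foxp3 is the transcription factor that defines regulatory T cells, and Il2rb encodes the beta chain of the IL-2 and IL-15 receptors, found on T cells and NK cells. Foxp3 (chromosome X, 7579676 to 7595243) had 60.8, 46.8, 84.2, 54.4 and 67.1 normalized counts in WT replicates 1 to 5 and 64.4, 28.1, 30.7, 74.8 and 44.8 in Zfp36ΔARE replicates 1 to 5. Zfp36ΔARE replicates 2 and 3 were the lowest of the 10 libraries, while replicates 1 and 4 lay inside the WT range. The log2 fold change was −0.36 (SE 0.29, 95% interval −1.01 to 0.28, adjusted p = 0.34), the only interval that reached past a 2-fold decrease. Foxp3 overlaps Ccdc22, which had 763 ± 35.2 and 819.8 ± 44.7 normalized counts in WT and Zfp36ΔARE skin, and without strand reads of this more abundant gene cannot be told apart from those of Foxp3 where they overlap. Il2rb (chromosome 15, 78479256 to 78511621) had 193, 113, 245, 117 and 163 in WT and 170.1, 151, 93.3, 163 and 156 in Zfp36ΔARE skin. Zfp36ΔARE replicate 3 lay far below its group, whose other 4 libraries were close together, and the log2 fold change was −0.18 (SE 0.24, 95% interval −0.71 to 0.35, adjusted p = 0.58).

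Per kilobase of exon, which allows levels of different genes to be compared, Cd3g had the highest level, with a mean of 5.56 CPM (counts relative to the TMM-scaled library size) per kilobase over the 10 libraries, and Foxp3 the lowest, with 0.531. Between them came Cd2 (3.52), Lck (3.42), Il2rb (2.18), Cd4 (2.07), Cd3e (1.95), Cd3d (1.85), Cd8a (1.08) and Cd247 (0.632). Steps larger than the spread over libraries separated Cd3g from Cd2, Lck from Il2rb, Cd3d from Cd8a and Cd8a from Cd247, and the upper gene was higher in all 10 libraries at each of these steps. Neighbors inside the blocks of Cd2 and Lck, of Il2rb, Cd4, Cd3e and Cd3d, and of Cd247 and Foxp3 differed by less than 1 SD over the libraries. The chains of the CD3 complex thus lay far apart on this scale, with Cd3g at the top, Cd3e and Cd3d in the middle and Cd247 near the bottom. The exon length used was 1 value per gene, 1023 bases for Cd3g and 4604 bases for Cd247. Which transcripts were expressed was not tested, so the order depends on these lengths.

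**Figure D2:**
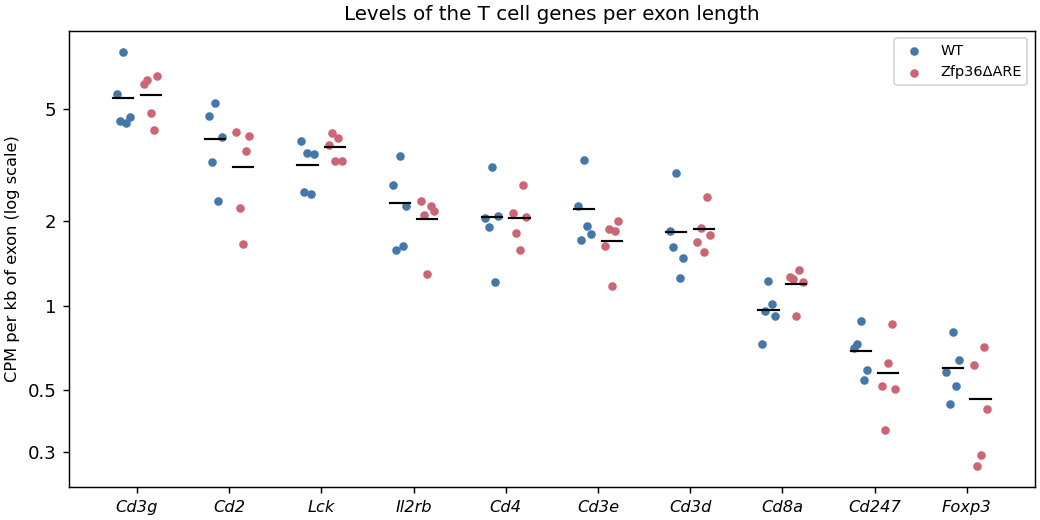
Levels of the 10 T cell genes in CPM per kilobase of exon (log scale), ordered by their mean over all libraries, from 5.56 for Cd3g to 0.531 for Foxp3. Each point is 1 mouse, WT in blue and Zfp36ΔARE in red, and the bars are group means.

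Within the groups most pairs of the 10 genes had a positive correlation from mouse to mouse. The summed level of the 10 genes was 47.2, 37.1, 60.9, 33.3 and 42.5 CPM in WT replicates 1 to 5 and 45.9, 41.6, 33.4, 48.7 and 44.1 CPM in Zfp36ΔARE replicates 1 to 5. WT replicate 3 was the highest of the 10 libraries in 8 of the genes, and Zfp36ΔARE replicate 3 was the lowest of its group in 7. After the mean of each group was subtracted, 44 of the 45 pairs of genes had a Pearson correlation above 0 over the 10 libraries on the log2(CPM + 1) scale, with a median of 0.55, a highest value of 0.89 for Cd3d with Cd4 and a lowest of −0.11 for Cd3g with Cd247. All points share their library, its depth and its tissue makeup, so these values are a description. The share of positive pairs among other genes was not computed, so whether any of this is particular to the 10 was not tested. WT replicate 3 had the lowest summed level of 10 hair shaft markers, 82.1 CPM where the other WT libraries had 536 to 3788, and the highest of 12 skeletal muscle markers, 41960.4 CPM where the other WT libraries had 8493 to 22020. Zfp36ΔARE replicate 3 had the highest hair shaft level, 17223 CPM where the others of its group had 5966 to 10117. The part of this makeup in the levels of the T cell genes was not tested.

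The 5 genes whose level followed that of Cd3e most closely held none of the other 9 T cell genes. Of 14439 genes with a mean of at least 1 CPM, Il6ra (r = 0.954), Ppp1r3d (0.947), Pdgfb (0.942), Sectm1a (0.942) and Stat5a (0.941) had the highest correlation with Cd3e over the 10 libraries after the group means were subtracted. The nearest of the other 9 T cell genes was Il2rb at rank 104, followed by Cd3d at rank 237 and Cd3g at rank 574. The rest ranked lower, with Cd4 at 1194, Cd2 at 1550, Cd8a at 1762, Foxp3 at 3309, Lck at 3328 and Cd247 at 5637 (r = 0.23). With about 65 to 84 normalized counts of Cd3e per group, counting error limits how closely any gene can follow it.

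The genes were then set against the myeloid decrease in the same libraries. Csf1r, the receptor for the growth factor of macrophages, had 5325, 5737, 5918, 3556 and 3038 normalized counts in WT and 1557, 1204, 1383, 2149.6 and 2021 in Zfp36ΔARE replicates 1 to 5. The groups did not overlap, and Csf1r fell by 1.5 on the log2 scale (SE 0.22, 95% interval −2.0 to −1.01, adjusted p = 0.0045). Of 14 macrophage markers 12 were called lower, beside 6.64% of all tested genes, and 0 higher, with a median log2 fold change of −1.35. Markers of some other cells were lower in the same libraries, with 7 of 8 mast cell markers (median −1.67), 11 of 12 skeletal muscle markers (−1.49) and 7 of 10 adipocyte markers (−1.07) called lower. Of 10 Langerhans and dendritic cell markers 2 were called lower and 6 passed an adjusted p under 0.05 as lower (median −0.71). Of 7 basal keratinocyte markers 0 were called (median −0.17), and of 10 hair shaft markers 2 were called higher (median 2.29). The summed level of the 14 macrophage markers was 685 to 1413 CPM in WT and 349 to 537 CPM in Zfp36ΔARE skin. That of the 10 T cell genes was 33.3 to 60.9 CPM and 33.4 to 48.7 CPM.

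**Figure D3:**
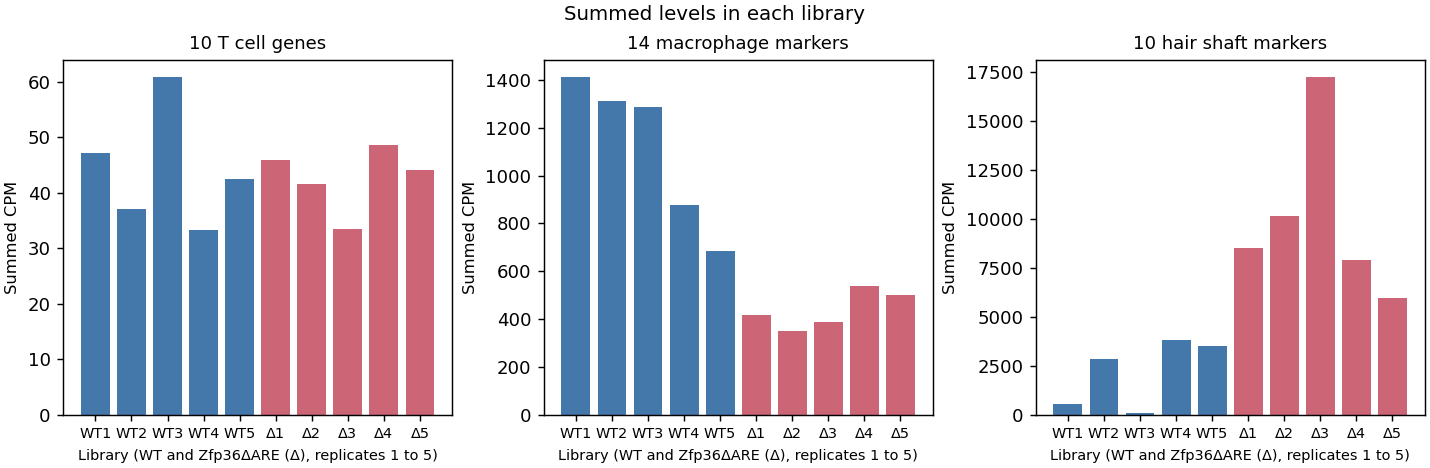
Summed level in CPM (bars from 0) of the 10 T cell genes, of 14 macrophage markers and of 10 hair shaft markers in each of the 10 libraries. The T cell sum overlaps between the groups (33.3 to 60.9 CPM in WT, 33.4 to 48.7 CPM in Zfp36ΔARE skin), whereas the macrophage sum is lower and the hair shaft sum higher in all 5 Zfp36ΔARE libraries.

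This contrast was also taken within libraries, as a ratio of 2 genes that share the scaling of their library. Csf1r was chosen with its decrease known, and the ratio combines that decrease with the small difference in Cd3e, so its p is no independent support for either. The log2 ratio of Cd3e to Csf1r was -5.93, -6.43, -5.53, -5.57 and -5.44 in WT replicates 1 to 5 and -4.62, -4.05, -4.91, -4.91 and -4.71 in Zfp36ΔARE replicates 1 to 5. All 5 Zfp36ΔARE ratios lay above all 5 WT ratios. The difference was 1.14 (SE 0.24), a 2.20-fold higher ratio in Zfp36ΔARE skin (two-sided, exact permutation p = 0.00794, which is the lowest possible with 5 mice a group, adjusted p = 0.0198 over the 5 ratios tested). With Cd3d or Cd3g in place of Cd3e, a choice made after the data were seen, the difference was 1.56 and 1.54 (exact p = 0.00794 for each).

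Among the T cell genes themselves, ratios to Cd3e were compared for the 4 subset genes. The log2 ratio of Cd8a to Cd3e was -0.50, 0.29, -0.31, 0.19 and 0.14 in WT and 0.76, 0.54, 0.76, 0.66 and 0.40 in Zfp36ΔARE replicates 1 to 5. Again the groups did not overlap, and the ratio was 1.58-fold higher in Zfp36ΔARE skin (log2 difference 0.66, SE 0.17, exact permutation p = 0.00794, adjusted p = 0.0198). This ratio sets the highest estimate of the 10 genes, that of Cd8a (0.31), against the lowest, that of Cd3e (−0.37). The adjustment also included the ratio of Cd3e to Csf1r, chosen with the decrease of Csf1r known and with the same exact p, which lowers the adjusted p of Cd8a to Cd3e. The call for Cd8a was lost with another CD3 chain as the reference, where the difference was 0.24 with Cd3d (exact p = 0.278) and 0.26 with Cd3g (exact p = 0.286), so it depends on which CD3 chain serves as the reference. The ratio of Cd4 to Cd3e differed by 0.38 (SE 0.19, exact p = 0.0794, adjusted p = 0.132), and its direction turned with Cd3d (−0.04, exact p = 0.675) or Cd3g (−0.02, exact p = 0.937). Without Zfp36ΔARE replicate 2 the Cd4 ratio passed an unadjusted 0.05 (0.46, exact p = 0.0476). Il2rb to Cd3e differed by 0.20 (SE 0.13, exact p = 0.190, adjusted p = 0.238) and also turned, to −0.23 with Cd3d and −0.21 with Cd3g. For Foxp3 to Cd3e the difference was −0.09 (SE 0.28, exact p = 0.730, adjusted p = 0.730).

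**Figure D4:**
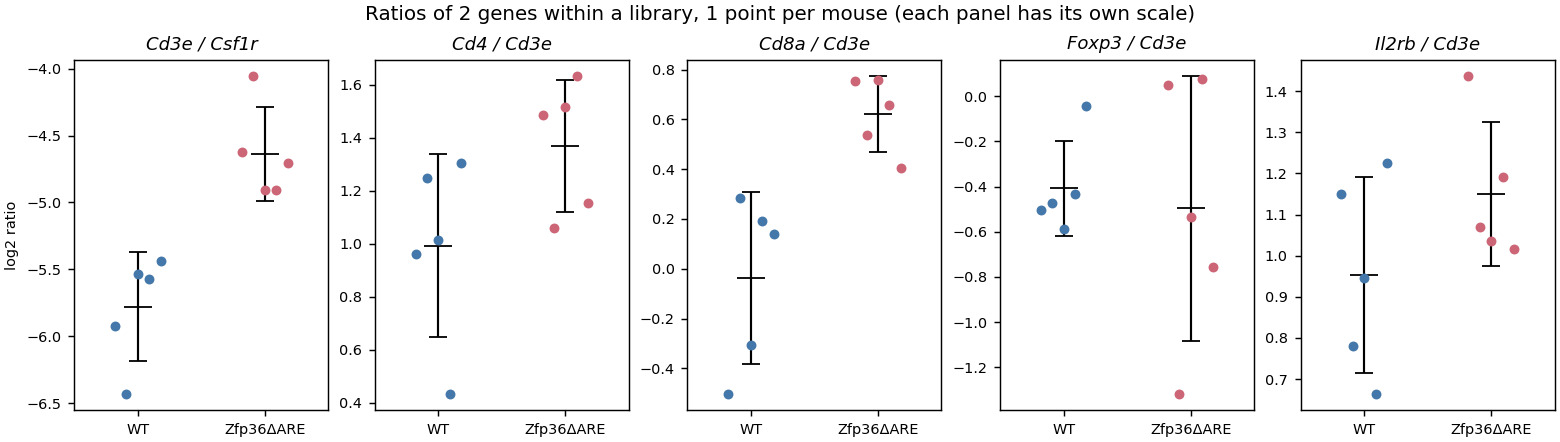
Log2 ratios of 2 genes within each library (vertical axes, each panel with its own scale) for WT and Zfp36ΔARE skin, with 1 point per mouse and bars for the mean and SD of 5 mice. The groups are apart for Cd3e to Csf1r (difference 1.14) and Cd8a to Cd3e (0.66) and overlap for the other 3 ratios.

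The genes that work with the 10 were read from lists of the same fit. Downstream of the receptor, 10 of 24 tested genes of proximal T cell receptor signaling passed an adjusted p under 0.05, 8 lower (beside 19.1% of all tested genes) and 2 higher (beside 15.3%), with a median log2 fold change of −0.30. Lcp2, which encodes the adaptor SLP-76, fell by 1.12 (SE 0.26, adjusted p = 0.0118) and was the only one past a 2-fold change. The others that fell were Fyb, Vav1, Nfatc1, Ptpn22, Grap2, Nfatc2 and Ptpn6, and several of the 8, such as Lcp2, Vav1 and Ptpn6, are known to act in myeloid and mast cells as well. Fyn, a kinase of the same family as LCK that many cell types express, rose by 0.68 (SE 0.11, adjusted p = 0.0053), and the membrane adaptor Pag1 rose by 0.66 (SE 0.16, adjusted p = 0.0142). Plcg1, the lipase that the signal activates, had the most counts of the list and a log2 fold change of 0.18 (adjusted p = 0.0887). Zap70 (−0.11, adjusted p = 0.766) and Lat (−0.11, adjusted p = 0.735), named after their values were seen because they sit next to the receptor, did not pass. The count of lower genes was 5 without any one of WT replicates 1 and 3 and Zfp36ΔARE replicates 2 and 3, and 1 without both WT replicates 1 and 3.

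Around Il2rb, the genes of the IL-2 and common gamma chain family were lower more often than not. Of 14 tested, 10 passed an adjusted p under 0.05 as lower (beside 19.1% of all tested genes) and 0 as higher, with a median log2 fold change of −0.65, and 0 passed a 2-fold change. The receptor chains Il2ra (−0.62, adjusted p = 0.0485), Il2rg (−0.79, adjusted p = 0.0075), Il7r (−0.80, adjusted p = 0.0305) and Il15ra (−0.68, adjusted p = 0.0096) fell, as did the cytokines Il7 and Il15. Their signaling partners Jak1 (−0.58, SE 0.10, adjusted p = 0.0066), Jak3, Stat5a and Stat5b fell too. Il4ra, the IL-4 receptor chain, had a log2 fold change of −0.34 (SE 0.19, adjusted p = 0.181). Most of these receptors and kinases are also used by myeloid, mast or stromal cells, and whether Il2rb differed from them was not tested.

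Among the co-receptor, costimulatory and checkpoint genes, 3 of 23 tested passed as lower (beside 19.1% of all tested genes) and 0 as higher (beside 15.3%) at an adjusted p under 0.05, with a median log2 fold change of −0.16. Cd48, the ligand of CD2 on many leukocytes, fell by 1.13 (SE 0.22, adjusted p = 0.0072) from 417 ± 134 to 190.04 ± 36.3 normalized counts. Sh2d1b1, an adaptor known from NK and myeloid cells, fell by 2.07 (SE 0.40, adjusted p = 0.0072), and Cd226 was the other gene that passed. Tnfrsf18, which encodes the receptor GITR of regulatory T cells, had 478 ± 29.7 and 412 ± 130.1 normalized counts (log2 fold change −0.22, SE 0.19, adjusted p = 0.394), and Ctla4 a log2 fold change of −0.24 (SE 0.21, adjusted p = 0.390).

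Transcription factors of T cell subsets moved in both directions. Of 18 tested, 6 passed as lower (beside 19.1% of all tested genes) and 6 as higher (beside 15.3%) at an adjusted p under 0.05, and 2, both higher, also passed the 2-fold change (beside 1.67% of all tested genes). Tcf7 rose by 1.34 (SE 0.21, adjusted p = 0.0052) and Lef1 by 1.16 (SE 0.33, adjusted p = 0.0236), and Gata3 rose by 0.51 (SE 0.12, adjusted p = 0.0116). All of these are T cell factors that hair follicle cells also express, and the summed hair shaft level was 82.1 to 3788 CPM in WT and 5966 to 17223 CPM in Zfp36ΔARE skin. Its part in their increase was not tested. Zbtb7b, a factor of helper T cells, had the highest mean count in the list and a log2 fold change of −0.02 (SE 0.07, adjusted p = 0.820). Its normalized counts were 3874 ± 242 in WT and 3814 ± 303 in Zfp36ΔARE skin, where Cd4 had 171 and 170.02. Which cells gave the RNA of Zbtb7b was not tested, so its value is no measure of helper T cells. Tbx21, the factor of type 1 cells, had a log2 fold change of −0.06 (adjusted p = 0.914). The lower count was 3 without Zfp36ΔARE replicate 1 or 3 and 2 without both WT replicates 1 and 3, and the higher count was 3 without Zfp36ΔARE replicate 3.

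Genes of cytotoxic and NK cells gave no call. Of 17 listed, 11 had enough counts to be tested and 0 passed an adjusted p under 0.05 in edgeR, beside 34.3% of all tested genes. In edgeR 3 had an unadjusted p under 0.05, and with DESeq2 1 was lower at an adjusted p under 0.05. Gzmc, a granzyme, had 269 ± 148 and 202 ± 90.4 normalized counts (log2 fold change −0.39, SE 0.42, adjusted p = 0.479), and the protease Ctsw had a log2 fold change of −0.23 (adjusted p = 0.525). Among 15 tested genes of T cell residence and homing 3 passed as lower at an adjusted p under 0.05, a share near the 19.1% of all tested genes, and 0 as higher. The 3 were S1pr1 (−1.15, SE 0.24, adjusted p = 0.0087), Selplg (−0.99, adjusted p = 0.0085) and Klf2 (−0.83, adjusted p = 0.0138). The list still leaned lower, with a median log2 fold change of −0.38 and estimates below 0 in 14 of the 15, beside 7634 of all 15543 tested genes. An unadjusted p under 0.05 in edgeR was reached by 6 of the 15, beside 7323 of all tested genes. S1pr1 and Klf2 are also endothelial genes and Selplg is found on most leukocytes. Itgae, the integrin of epidermal T cells, had a log2 fold change of −0.10 (SE 0.20, adjusted p = 0.704). Without WT replicate 4, and with DESeq2, 5 genes of this list passed as lower.

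Genes of other leukocytes were read beside the 10 T cell genes, which does not test in which cells the 10 were expressed. Of 8 B cell markers 3 had enough counts to be tested. Of these 0 passed an adjusted p under 0.05 (beside 34.3% of all tested genes), and 0 an unadjusted p under 0.05 in edgeR. The summed level of the 8 B cell markers was 2.73 to 3.94 CPM in WT and 1.48 to 5.55 CPM in Zfp36ΔARE skin. The highest raw count in any library was 4 for Pax5, 11 for Ms4a1, 14 for Cd79a, 42 for Cd79b and 64 for Cd22. The cytotoxic and NK list summed to 21.3 to 50.2 CPM in WT and 18.1 to 37.4 CPM in Zfp36ΔARE skin. Within it Ncr1 and Klrb1c, receptors of NK cells, had at most 19 and 14 raw counts, while Klrk1, Nkg7 and Klrd1, which T cells share with NK cells, reached 148, 98 and 55, so a part of NK cells in the signal of Cd247, Lck, Cd2 and Il2rb was not tested. Of 6 genes shared by all leukocytes, 5 passed as lower at an adjusted p under 0.05 (beside 19.1% of all tested genes) and 3 were called lower (beside 6.64%), Laptm5 (−1.29, SE 0.20, adjusted p = 0.0049), Cd53 (−1.24, SE 0.23, adjusted p = 0.0069) and Ptprc, which encodes CD45 (−1.02, SE 0.21, adjusted p = 0.0088). Ptprcap, named after its value was seen as the sixth gene, had a log2 fold change of −0.25 (SE 0.27, adjusted p = 0.481) and is known from lymphocytes. Of 10 symbols searched for the constant genes of the T cell receptor itself, 0 were found among the genes measured, so αβ and γδ T cells were not told apart.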

How the data were processed

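Per the labels and the methods of the study, the authors aligned paired-end reads to mm10 with STAR 2.5.2b, counted them per gene with featureCounts (Subread 1.5.0-p1) and tested them with DESeq2. The deposited values are raw counts without normalization, and the handling of strand and of reads that match several genes is not given in the sources used here. From 24454 genes, 2 rows without a gene name (7.38e-05% of counts) were left out. In R 4.3.3, edgeR 4.0.16 scaled the counts (TMM), filtered genes with filterByExpr and fitted the quasi-likelihood model with genotype as the only term over 15543 genes, with Benjamini-Hochberg adjustment over all of them. A call required a fold change over 2 with an adjusted p under 0.05. Ratios used scaled counts with a pseudocount of 1 and exact two-sided permutation tests over 252 splits. The alternatives were DESeq2 1.42.0, limma 3.58.1 (voom), other scalings, filters and dispersions, a replicate block, and libraries left out. List counts under the alternatives and other reference genes for the ratios were added after the data were seen.

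The members and lists were chosen with earlier results of these data known, and lists are described by counts and medians, with no set test. Beside the 10 T cell genes and Zfp36, the rule named the 2 genes with the most counts in a list, up to 3 called genes with the lowest adjusted p, and the 5 most like Cd3e. Other named genes were chosen after their values were seen. Most list genes, and nearly all of those for other cell types, are given only by counts. Depth was 19595024 to 36419553 counts per library. The median biological coefficient of variation was 14.9%. Positions are GRCm38 from RefSeq, and 3′-UTRs are from GENCODE on GRCm38. The scripts were tested on simulated data.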

Additional observations from a re-analysis of the deposited data

Results flagged for a closer look

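Samples that stood far from the rest of their group were found in 2 of 30 groups of values examined, where chance alone gives about 1.5. For the normalized counts of Il2rb in Zfp36ΔARE skin, the gap between replicate 3 (93.3) and the nearest other replicate (151) was 0.754 of the range of the group, above the limit of 0.71 for 5 samples. For the log2 ratio of Foxp3 to Cd3e in WT skin, the gap between replicate 5 (−0.04) and the nearest other replicate (−0.43) was 0.719 of the range.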

How the results depend on the processing

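None of the 10 T cell genes passed the test under any of the 19 alternatives, with 0 called and 0 at an adjusted p under 0.05 in each and a lowest adjusted p of 0.0764. Of 190 pairs of a gene and an alternative, 172 kept the direction and 18 turned it, all in Cd3d, Cd3g, Cd4 and Il2rb. Cd4 turned to 0.042 with limma-voom, 0.026 with the replicate block, 0.24 without WT replicates 1 and 3, 0.18 without WT replicate 3, and 0.035 and 0.069 without Zfp36ΔARE replicates 2 and 3. Cd3d turned to −0.0081 with upper-quartile scaling. With single libraries left out, Cd3d ranged from −0.080 to 0.26, Cd3g from −0.020 to 0.22, Cd4 from −0.15 to 0.18 and Il2rb from −0.29 to 0.00067, and without both WT replicates 1 and 3 Il2rb was 0.16 and the median of the 10 genes 0.20. With single libraries left out, proximal signaling genes numbered 5 to 8 lower and 2 to 3 higher, subset transcription factors 3 to 7 lower and 3 to 6 higher, homing genes 3 to 5 lower, costimulatory genes 3 to 4 lower and IL-2 family genes 8 to 11 lower. Without both WT replicates 1 and 3, proximal signaling fell to 1 lower and subset factors to 2 lower. DESeq2 gave 1 lower cytotoxic and 5 lower homing genes. The ratio of Cd3e to Csf1r ranged from 0.98 to 1.23 with libraries left out, Cd8a to Cd3e from 0.54 to 0.74, Cd4 to Cd3e from 0.24 to 0.46, Il2rb to Cd3e from 0.12 to 0.26 and Foxp3 to Cd3e from −0.23 to 0.12. With Cd3d and Cd3g as the reference, Cd8a gave 0.24 and 0.26, Cd4 −0.045 and −0.024, and Il2rb −0.23 and −0.21. The cause of these changes was not tested. Same-numbered libraries did not deviate together (correlations −0.19 to 0.09, 0 of 5 WT libraries closest to their own number), so the numbers were not taken to pair the mice. With the replicate block, 983 genes were called, 3 proximal signaling genes were lower and 3 subset factors lower and 3 higher, and the ratios of Cd3e to Csf1r (1.14) and Cd8a to Cd3e (0.66) had an exact p = 0.0625, the smallest that 5 pairs allow. Counts of 28 to 305 per gene and library limit what could be detected.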
